A study of Rattus norvegicus with 12 samples.

Results

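The inflammatory chemokine ligands Cxcl13, Ccl2, Ccl3, Ccl4, Ccl5, Ccl7, Cxcl9, Cxcl10, Cxcl11 and Cxcl16 were followed in rat thalamus and RVM (rostral ventral medulla) from a series on chronic orofacial pain. The members were taken by gene name from a table of 34525 genes, and all 10 of 10 names matched a single protein-coding gene. The 12 RNA sequencing libraries form 4 groups of 3, namely thalamus CFA, thalamus saline, RVM CFA and RVM saline. The saline groups are labelled 0.9% NS (normal saline). CFA is the usual short form of complete Freund's adjuvant, which is injected to cause lasting inflammation, but the labels give only the letters and state no strain, age, dose, time or injection site. Nothing in them ties libraries to separate animals. The p-values therefore reflect only how these samples scatter, and that scatter may be technical. The thalamus relays sensory signals to the cortex, and the RVM sends descending projections that raise or lower spinal and trigeminal pain signals.

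Chemokines are small secreted proteins that draw leukocytes along a concentration gradient through G protein-coupled receptors. The ligands followed here are the inducible kind, low in resting brain and made by activated microglia, macrophages, astrocytes and vessel cells after signals such as interleukin 1, tumour necrosis factor and interferons. By known role they fall into 5 groups. Cxcl13 draws B cells and follicular T cells through Cxcr5. Ccl2 and Ccl7 draw monocytes through Ccr2. Ccl3, Ccl4 and Ccl5 draw macrophages and T cells, and Ccl3 and Ccl5 act on Ccr1. Cxcl9, Cxcl10 and Cxcl11, induced by interferon, draw activated T cells through Cxcr3. Cxcl16, made as a membrane-bound protein that can be shed, binds Cxcr6 on T cells and also takes up oxidised lipoprotein.

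The genes lie in clusters. In the coordinates of the authors' table, whose build the sources used here do not give, Cxcl13 (ENSRNOG00000024899) spans chr14:15253125-15258207, and Cxcl11, Cxcl10 and Cxcl9 follow on the same chromosome. No other listed gene lies between Cxcl11 and Cxcl10, 12.4 kb apart, or between Cxcl10 and Cxcl9, 15.9 kb apart. Ccl2 (ENSRNOG00000007159, chr10:69412017-69413870) and Ccl7 (ENSRNOG00000000239, chr10:69423086-69424979) are neighbours 9.2 kb apart. Ccl3 and Ccl4 are neighbours 13.5 kb apart, with Ccl5 125.2 kb away on the same chromosome. Cxcl16 (ENSRNOG00000026647) lies alone at chr10:57060007-57064600.

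RefSeq promoter sequences in build GRCr8 were on hand for 6 of the 10 members. The 250 bases before the start are shown for 5 of these. Among them, the neighbours Cxcl9, Cxcl10 and Cxcl11 share a receptor and differ in the letters they hold. Capitals mark letters that match a searched motif on either strand, printed in the direction of the gene. The motifs were the interferon response pair (GAAA and GAAA with any 2 bases between), the STAT site TTCNNNGAA, the NF-kB consensus and TATAAA. They are held by 3.41%, 7.67%, 6.33% and 12.9% of the 33469 promoter windows of the same length, in that order. The windows are chr14:13917921-13918170 (minus strand) for Cxcl13, chr14:16006916-16007165 (plus strand) for Cxcl9, chr14:15988816-15989065 (plus strand) for Cxcl10, chr14:15973478-15973727 (plus strand) for Cxcl11 and chr10:67513845-67514094 (plus strand) for Ccl7.
Cxcl13: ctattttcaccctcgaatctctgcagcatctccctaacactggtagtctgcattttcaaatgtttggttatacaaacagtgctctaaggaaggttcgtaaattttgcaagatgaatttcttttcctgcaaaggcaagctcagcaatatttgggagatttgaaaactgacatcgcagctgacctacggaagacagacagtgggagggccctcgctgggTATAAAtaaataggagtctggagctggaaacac
Cxcl9: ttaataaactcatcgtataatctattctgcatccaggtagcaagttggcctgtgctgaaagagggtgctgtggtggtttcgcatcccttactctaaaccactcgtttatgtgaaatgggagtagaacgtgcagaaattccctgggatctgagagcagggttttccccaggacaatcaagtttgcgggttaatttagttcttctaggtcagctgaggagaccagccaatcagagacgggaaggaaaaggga
Cxcl10: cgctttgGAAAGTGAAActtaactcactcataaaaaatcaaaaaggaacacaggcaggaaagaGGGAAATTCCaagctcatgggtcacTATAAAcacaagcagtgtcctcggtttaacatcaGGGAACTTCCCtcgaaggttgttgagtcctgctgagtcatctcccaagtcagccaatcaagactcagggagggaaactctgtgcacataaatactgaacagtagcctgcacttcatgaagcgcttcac
Cxcl11: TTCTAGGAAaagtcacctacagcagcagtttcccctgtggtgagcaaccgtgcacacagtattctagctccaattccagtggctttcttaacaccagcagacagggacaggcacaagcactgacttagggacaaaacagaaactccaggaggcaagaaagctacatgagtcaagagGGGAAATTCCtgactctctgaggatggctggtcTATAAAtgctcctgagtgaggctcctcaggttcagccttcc
Ccl7: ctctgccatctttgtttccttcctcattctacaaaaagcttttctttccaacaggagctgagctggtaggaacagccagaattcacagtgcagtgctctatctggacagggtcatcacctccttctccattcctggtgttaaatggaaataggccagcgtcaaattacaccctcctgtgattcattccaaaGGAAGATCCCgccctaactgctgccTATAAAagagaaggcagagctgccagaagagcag
Cxcl10 held the interferon response pair 243 to 234 bases before the start and the NF-kB consensus at 187 to 178 and 128 to 119, with a match on the other strand at 127 to 118 that overlaps the last of these. Cxcl11 held the STAT site at 250 to 242 and the NF-kB consensus at 74 to 65. Ccl7 held the NF-kB consensus on the opposite strand at 59 to 50. A TATAAA stretch lay 33 to 28 bases before the start of Cxcl13, 34 to 29 before that of Ccl7 and 41 to 36 before that of Cxcl11, whereas in Cxcl10 it lay at 162 to 157. None of the searched letters occurred in the Cxcl9 window or in that of Cxcl16. In all, 3 of the 6 windows held the NF-kB consensus. These matches describe letters and not bound sites.

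Each library held 14944794 to 19243108 reads, recovered from FPKM (fragments per kilobase of gene, scaled to library size). A gene listed at 0 therefore had 0 reads, and an expected count of up to 3 reads is taken as the limit; reads without molecular identifiers are not independent molecules, so this limit is for counting error alone. The extraction protocol mentions retinas, yet the regions carried their own markers: limma called all 8 thalamic neuron markers higher in saline thalamus than in saline RVM, and all 6 tested hindbrain markers lower. Among the CFA thalami, summed choroid plexus markers (10 genes) were 10979, 2687 and 62.8 FPKM in libraries 1, 2 and 3, against 56.0 to 87.4 FPKM in saline thalami. RVM CFA library 2 stood apart from the other CFA libraries of its region, as shown beside the RVM results. The factor by which the authors' scaling departed from the recovered reads was at least 1.109 in the CFA thalami and at most 1.04 in the other 9 libraries.

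In the thalamus, all 10 chemokine ligands were higher in every CFA library than in every saline library, an order found for 12.2% of 14722 genes tested. The sum of the 10 ligands was 217, 157 and 162 FPKM in CFA thalami, against 6.64, 5.94 and 5.37 FPKM in saline thalami. In limma, 7 members were called higher at an adjusted p below 0.05, against 3.84% of all genes, and none was lower. The called members were Cxcl13, Ccl2, Cxcl16, Cxcl10, Ccl7, Cxcl9 and Ccl4. All 10 had passed the filter of a mean of 1 FPKM, but 8 of them did so only through their CFA level, since the saline mean reached 1 FPKM only in Ccl5 and Cxcl16. Those counts therefore describe the members and are not offered as support. In tissue RNA, more cells of a type and more RNA per cell cannot be told apart. Log2 changes below are differences of mean log2(FPKM + 1), and for genes near 0 they come out too small.

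**Figure D1:**
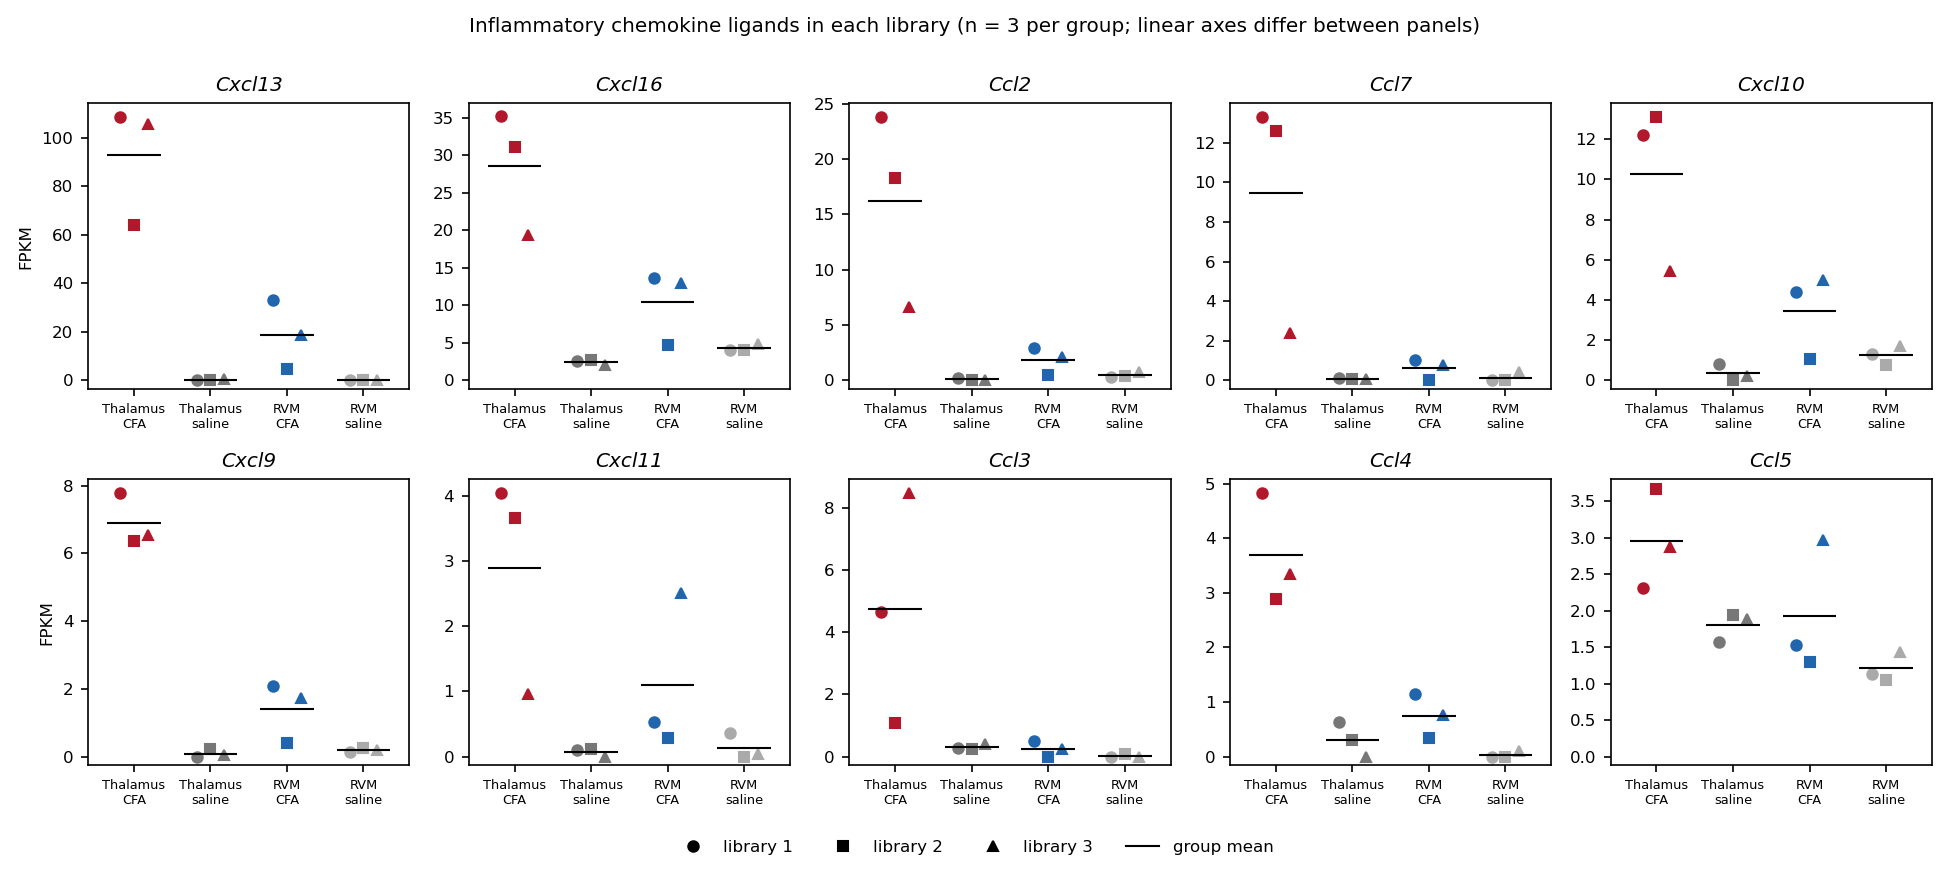
FPKM of each of the 10 chemokine ligands in the 12 libraries, with a linear y axis per panel, symbols for libraries 1 to 3 of each group and a line at the group mean. In the thalamus the 3 CFA libraries lie above the 3 saline libraries in every panel, and in the RVM the square, CFA library 2, is the lowest CFA value in every panel.

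Cxcl13 reached the highest level. It had 109, 63.9 and 106 FPKM in CFA thalami, against 0.221, 0.274 and 0.637 FPKM in saline thalami, which were 5, 5 and 12 reads. The lowest CFA library lay far above the highest saline library. Mean levels were 92.9 ± 25.1 FPKM in CFA and 0.377 ± 0.227 FPKM in saline thalami (SD, n = 3 each), a ratio of 246 resting on few saline reads. The log2 change was 6.06 ± 0.24 (SE; limma adjusted p = 0.000212), rank 4 by size among the 14722 genes. Cxcl13 made up 50.1%, 40.8% and 65.3% of the summed FPKM of the 10 ligands in CFA thalami, against 3.32%, 4.61% and 11.9% in saline thalami.

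Cxcl16 was the only member other than Ccl5 with a mean over 1 FPKM in saline thalami. Its levels were 35.3, 31.1 and 19.5 FPKM in CFA thalami, against 2.65, 2.78 and 2.06 FPKM in saline thalami. All CFA libraries stood well clear of the saline range, and the log2 change was 3.05 ± 0.23 (SE; limma adjusted p = 0.00136). The ratio of the means was 11.5. Cxcl16 held 16.3%, 19.9% and 12% of the ligand sum in CFA thalami, against 39.9%, 46.8% and 38.3% in saline thalami, where it was the largest share.

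The monocyte attractants Ccl2 and Ccl7 followed each other across libraries. Ccl2 had 23.8, 18.3 and 6.63 FPKM in CFA thalami, against 0.241, 0 and 0.0724 FPKM in saline thalami, which were 4, 0 and 1 reads. Ccl7 had 13.3, 12.6 and 2.41 FPKM in CFA thalami, against 0.118, 0.0733 and 0.0711 FPKM in saline thalami. Both were near absent in saline thalami and lowest among the CFA libraries in library 3, where Ccl7 was 25.5% of its CFA mean and Ccl2 was 40.9%. The log2 changes were 3.81 ± 0.43 for Ccl2 (SE; limma adjusted p = 0.00558) and 3.0 ± 0.55 for Ccl7 (SE; limma adjusted p = 0.0370). The Ccl7 call was lost in 5 of the 6 fits that left out 1 library each, with adjusted p-values of 0.0823 to 0.140, and it was kept only without CFA library 3.

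Of the interferon-induced ligands, Cxcl10 and Cxcl9 passed the test. Cxcl10 had 12.2, 13.1 and 5.47 FPKM in CFA thalami, against 0.842, 0 and 0.213 FPKM in saline thalami, and its log2 change was 3.03 ± 0.37 (SE; limma adjusted p = 0.00744). Cxcl9 had 7.79, 6.36 and 6.55 FPKM in CFA thalami, against 0, 0.208 and 0.0403 FPKM in saline thalami. Cxcl9 was the most even of all members, its highest CFA library being 1.23 times its lowest, and its log2 change was 2.87 ± 0.16 (SE; limma adjusted p = 0.000596). Cxcl11 had 4.06, 3.67 and 0.967 FPKM in CFA thalami, against 0.0969, 0.120 and 0 FPKM in saline thalami. Like Cxcl10 it was lowest in CFA library 3, there by 4.20 times, and at a log2 change of 1.75 ± 0.38 it missed the threshold (SE; limma adjusted p = 0.0659). Without CFA library 3 the log2 change of Cxcl11 was 2.18 and the limma adjusted p 0.00882. Leaving out the lowest CFA library raises the change, so this fit is a description and is not offered as support.

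Of Ccl3, Ccl4 and Ccl5, only Ccl4 was called. Ccl4 had 4.84, 2.89 and 3.34 FPKM in CFA thalami, against 0.637, 0.296 and 0 FPKM in saline thalami. Its log2 change was 1.85 ± 0.25 (SE; limma adjusted p = 0.0121), and without saline library 2 the limma adjusted p was 0.0576. Ccl3 had 4.66, 1.09 and 8.51 FPKM in CFA thalami, against 0.266, 0.247 and 0.399 FPKM in saline thalami. Ccl3 was thus the most uneven member, its highest CFA library, number 3, being 7.82 times its lowest, and at 1.89 ± 0.53 it did not pass (SE; limma adjusted p = 0.129). Without CFA library 2 the log2 change of Ccl3 was 2.49 and the limma adjusted p 0.0138. Library 2 was the lowest CFA library for Ccl3, so this fit is likewise a description and not offered as support. Ccl5 moved least, with 2.32, 3.67 and 2.87 FPKM in CFA thalami, against 1.57, 1.94 and 1.88 FPKM in saline thalami. The Ccl5 values rest on 24, 34 and 26 reads in CFA thalami and 17 in each saline thalamus, and the log2 change of 0.49 ± 0.17 did not pass (SE; limma adjusted p = 0.190).

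The order of the member levels within CFA thalami was Cxcl13, Cxcl16, Ccl2, Cxcl10, Ccl7, Cxcl9, Ccl3, Ccl4, Ccl5 and Cxcl11, by mean FPKM. Only Cxcl13 stood clear of its neighbour, since from Cxcl16 down each member's 3 libraries overlapped those of the next. The CFA libraries did not order the members alike. Ccl2, Ccl7, Cxcl10, Cxcl11 and Cxcl16 were lowest in library 3, Cxcl13, Ccl3, Ccl4 and Cxcl9 in library 2, and Ccl5 in library 1. Of all genes tested, 32.4% were lowest in library 3, 26.7% in library 2 and 40.9% in library 1. Library 3 is the CFA thalamus whose choroid plexus sum of 62.8 FPKM lay within the saline range. In that library every member was above every saline library. This is 1 library, and the part of choroid plexus tissue in the ligand levels was not tested. A fit of CFA library 3 alone against the saline thalami takes its spread from the saline libraries, so its calls are not offered as support. The summed meningeal and mural markers (11 genes) were 322, 71.6 and 103 FPKM in CFA libraries 1, 2 and 3, against 54.3 to 82.1 FPKM in saline thalami, and their part in the ligand levels was not tested.

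The sources used here do not give how reads shared by close paralogs such as Ccl3 and Ccl4 were counted. Limma-voom on the recovered reads called 3 members higher in the thalamus, Cxcl13, Cxcl16 and Cxcl9, against 656 of all 14722 genes tested. There the other 4 had adjusted p-values of 0.0511 for Ccl4, 0.0587 for Cxcl10, 0.0735 for Ccl2 and 0.129 for Ccl7.

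In the RVM, the same ligands were higher in CFA libraries 1 and 3, and CFA library 2 lay within the saline range for 7 of the 10. The ligand sum was 61.1, 13.2 and 47.7 FPKM in CFA RVM, against 7.40, 6.69 and 9.64 FPKM in saline RVM. Every CFA library was above every saline library for 3 of 10 members, Cxcl13, Cxcl9 and Ccl4, an order found for 7.27% of 14289 genes. The filter was passed by 5 members, of which Ccl5, Cxcl10 and Cxcl16 also had a saline mean of at least 1 FPKM. Limma called 0 of these 5, and 0% of all genes, at an adjusted p below 0.05, and limma-voom called none either. At an unadjusted p below 0.05, 2 of the 5 were higher, Cxcl13 and Cxcl16, against 5.93% of all genes.

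Cxcl13 had 33.2, 4.59 and 18.7 FPKM in CFA RVM, against 0.163, 0 and 0.0530 FPKM in saline RVM, which were 3, 0 and 1 reads. Even the lowest CFA library, with 96 reads, was clear of the saline range. The log2 change of 3.86 ± 0.60 was rank 6 by size in the RVM but did not pass (SE; limma adjusted p = 0.242). Cxcl16 had 13.7, 4.66 and 12.96 FPKM in CFA RVM, against 4.02, 4.12 and 4.88 FPKM in saline RVM. There CFA library 2 fell inside the saline range, and the log2 change was 0.98 ± 0.35 (SE; limma adjusted p = 0.299).

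Cxcl10 had 4.40, 1.06 and 4.98 FPKM in CFA RVM, against 1.31, 0.759 and 1.70 FPKM in saline RVM. Ccl2 had 2.92, 0.522 and 2.08 FPKM in CFA RVM, against 0.296, 0.429 and 0.795 FPKM in saline RVM. In both genes CFA library 2 overlapped the saline libraries and the other CFA libraries did not. Log2 changes were 0.87 ± 0.41 for Cxcl10 (SE; limma adjusted p = 0.402) and 0.82 ± 0.36 for Ccl2 (SE; limma adjusted p = 0.361). Ccl5 had 1.53, 1.30 and 2.97 FPKM in CFA RVM, against 1.13, 1.05 and 1.44 FPKM in saline RVM, with a log2 change of 0.37 ± 0.23 (SE; limma adjusted p = 0.508).

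The 5 members under the filter were low throughout. Cxcl9 had 2.07, 0.399 and 1.72 FPKM in CFA RVM, against 0.124, 0.239 and 0.201 FPKM in saline RVM. Ccl4 had 1.14, 0.345 and 0.761 FPKM in CFA RVM, against 0, 0 and 0.0956 FPKM in saline RVM. Both were higher in all 3 CFA libraries, at 4 to 56 reads per CFA library. Cxcl11 had 0.535, 0.280 and 2.51 FPKM in CFA RVM, against 0.357, 0 and 0.0388 FPKM in saline RVM, so that only CFA libraries 1 and 3 were above the saline range. Ccl7 had 1.04, 0 and 0.777 FPKM in CFA RVM, against 0, 0 and 0.426 FPKM in saline RVM. Ccl3 had 0.513, 0 and 0.238 FPKM in CFA RVM, against 0, 0.0947 and 0 FPKM in saline RVM, which is at most 7 reads in any library.

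CFA library 2 was the lowest of the 3 CFA libraries of the RVM for all 10 members, against 28.2% of all genes tested there. Of the 565 genes called higher in CFA thalami, 528 (93.5%) were likewise lowest in this library among the CFA RVM libraries. So were 12 of the 14 microglia and macrophage markers, whose sum was 1433, 421 and 1193 FPKM in CFA RVM libraries 1, 2 and 3, against 236 to 297 FPKM in saline RVM. The ligand sum in library 2, 13.2 FPKM, was still above all 3 saline libraries, but 34.9% of it was Cxcl13, against up to 2.2% in saline RVM. Apart from Cxcl13, only Cxcl9 and Ccl4 were above every saline library there, at 0.399 and 0.345 FPKM. Among the 6 fits that left out 1 RVM library each, the fit without it was the only fit to call a member. It called 4 of the 5 tested members higher, against 2.78% of all genes. These were Cxcl13 with a log2 change of 4.60 (limma adjusted p = 0.00164), Cxcl16 with 1.43 (limma adjusted p = 0.00259), Cxcl10 with 1.35 (limma adjusted p = 0.0250) and Ccl2 with 1.22 (limma adjusted p = 0.0411). Ccl5 stayed uncalled at 0.52 (limma adjusted p = 0.297). The library left out was already the lowest CFA library for all 10 members, and Cxcl13 and Ccl2 passed the filter only through their CFA level. The count without library 2 is therefore a description and is not offered as support.

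**Figure D2:**
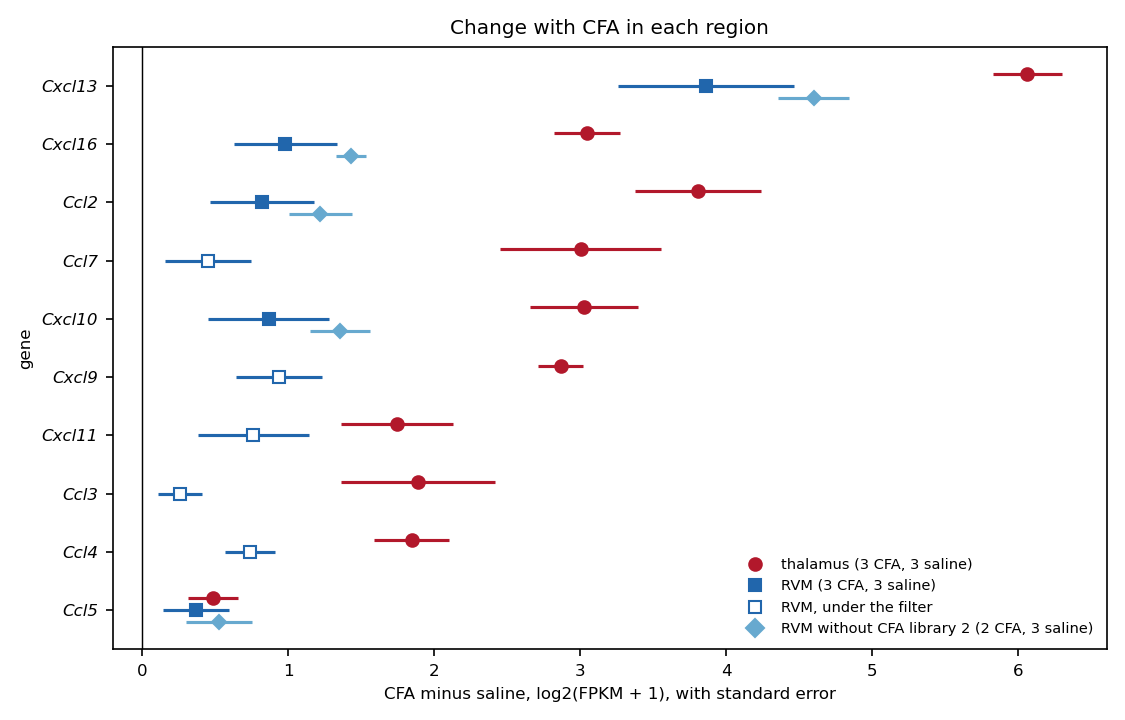
Log2 change of each ligand, CFA minus saline on the log2(FPKM + 1) scale, in the thalamus and in the RVM with and without CFA library 2; bars are standard errors and open squares are members under the RVM filter. With all libraries, the thalamus point lies right of the RVM point for all 10 ligands, from 0.49 for Ccl5 to 6.06 for Cxcl13. Leaving out CFA library 2 moves the 5 tested RVM points to the right, that of Ccl5 to 0.52.

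On the log2(FPKM + 1) scale the CFA change was larger in the thalamus than in the RVM for all 10 members, but the difference itself passed for none. The median difference of the log2 changes was 2.0 over the 10 members and -0.04 over the 15273 genes tested. Limma called 0 members and 0% of all genes in the interaction of region and treatment, and limma-voom called none either. At an unadjusted p below 0.05, 8 members were higher, against 5.62% of all genes. The filter here was a mean of 1 FPKM in at least 1 region. Ccl3, Ccl4, Ccl7, Cxcl9 and Cxcl11 passed it only through their level in CFA thalami, so the count and the median are a description. For Cxcl13 the difference was 2.2, but 1.17 with 0.1 added in place of 1 and 0.65 ± 3.32 (SE) in limma-voom. By the ratio of mean FPKM, CFA over saline, the RVM exceeded the thalamus for Cxcl13 and Ccl4, whose saline RVM means rest on 4 reads and 1 read in all. The largest differences were 2.98 ± 0.60 for Ccl2 (SE; limma adjusted p = 0.218) and 2.55 ± 0.68 for Ccl7 (SE; limma adjusted p = 0.308). For Ccl5 the difference was 0.12 ± 0.29 (SE; limma adjusted p = 0.889), and leaving out thalamus CFA library 2 or RVM CFA library 2 turned its sign, to -0.01 and -0.04. Without thalamus CFA library 3, limma called Ccl2 with a difference of 3.49 (adjusted p = 0.0315) and Ccl7 with 3.23 (adjusted p = 0.0276). That library was the lowest CFA thalamus for both genes, so leaving it out raises the difference. These calls are a description and are not offered as support.

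Levels in CFA thalami and CFA RVM were also compared directly. Limma called 7 members higher in CFA thalamus, against 14.9% of all genes, namely Ccl2, Ccl3, Ccl4, Ccl7, Cxcl9, Cxcl13 and Cxcl16. Of these, 3 (Ccl3, Ccl4 and Ccl7) had CFA RVM means under 1 FPKM and passed the filter only through CFA thalamus, so the count is a description. The log2 differences ran from 1.43 for Ccl4 (limma adjusted p = 0.00678) to 2.55 for Cxcl13 (limma adjusted p = 0.0247). Cxcl10 differed by 1.39 (limma adjusted p = 0.0681), Cxcl11 by 0.92 (limma adjusted p = 0.204) and Ccl5 by 0.46 (limma adjusted p = 0.197). In the 6 fits that left out 1 library each, the calls of Ccl2, Ccl4 and Cxcl9 were always kept. The Ccl3 call was lost in 5 of these fits, and those of Cxcl13, Cxcl16 and Ccl7 in 3 each. Leaving out RVM CFA library 3 cut the count to 3 members (Ccl2, Ccl4 and Cxcl9). Leaving out thalamus CFA library 1 cut it to 4 (Ccl2, Ccl4, Ccl7 and Cxcl9). Setting all libraries to equal FPKM totals added Cxcl10. It moved the median difference of all genes from -0.00 to 0.29 and the calls from 2206 higher and 2674 lower in CFA thalamus to 5083 higher and 1025 lower.

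Among the saline libraries, 2 members were abundant enough to test. The order of the regions was opposite to that in CFA for Cxcl16 and the same for Ccl5. Cxcl16 was lower in saline thalamus, at 2.65, 2.78 and 2.06 FPKM, than in saline RVM, at 4.02, 4.12 and 4.88 FPKM, with no overlap. The log2 difference was -0.61 ± 0.13 (SE; limma adjusted p = 0.00929), in a comparison where 22.7% of 14396 genes were lower in saline thalamus. Equal FPKM totals moved the calls of all genes from 3250 higher and 3273 lower in saline thalamus to 4559 higher and 2013 lower, and left the Cxcl16 call in place. Ccl5 averaged 1.80 ± 0.20 FPKM in saline thalamus and 1.21 ± 0.20 FPKM in saline RVM (SD, n = 3 each), a log2 difference of 0.34 ± 0.14 that did not pass (SE; limma adjusted p = 0.0933). The other 8 members fell under the filter. Of these, Cxcl10 had 0.842, 0 and 0.213 FPKM in saline thalamus and 1.31, 0.759 and 1.70 FPKM in saline RVM. Ccl2 was lower in saline thalamus, at up to 0.241 FPKM against 0.296 FPKM or more in saline RVM. Cxcl13 was higher there, at 0.221 FPKM or more against up to 0.163 FPKM. Ccl3 was also higher, at 0.247 FPKM or more against up to 0.0947 FPKM. These Ccl2, Cxcl13 and Ccl3 values rest on at most 12 reads per library. Ccl4, Ccl7, Cxcl9 and Cxcl11 overlapped between the regions.

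**Figure D3:**
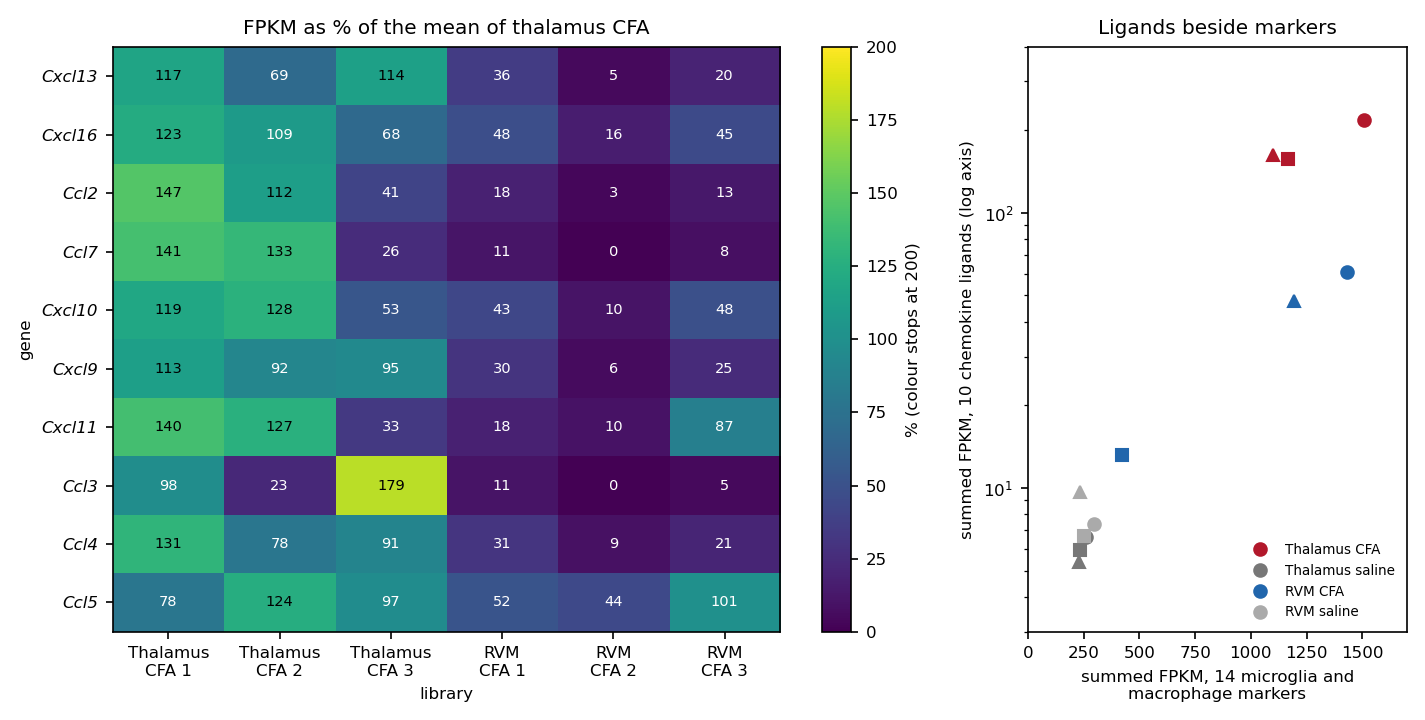
Left, FPKM of each ligand in the 6 CFA libraries as a percentage of its mean in CFA thalami, in colour and as numbers. Right, summed FPKM of the 10 ligands (log y axis) against summed FPKM of 14 microglia and macrophage markers (linear x axis) in the 12 libraries, circle, square and triangle standing for libraries 1, 2 and 3. CFA thalami lie above CFA RVM libraries 1 and 3 at like marker sums.

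Of the marker lists for cells that can make or follow these ligands, those of microglia and macrophages and of monocytes and neutrophils had most of their tested genes called. In the thalamus 10 of 13 tested microglia and macrophage markers were called higher, including Cd68, a lysosomal protein of phagocytes (log2 change 3.80), Aif1, an actin-binding protein of microglia (2.15), and Csf1r, the receptor that microglia need to survive (1.65). Tmem119, a marker of resident microglia, was not called, at 0.17 ± 0.21 (SE; limma adjusted p = 0.649). The sum of the 14 measured markers was 1508, 1167 and 1099 FPKM in CFA thalami, against 228 to 263 FPKM in saline thalami. None of the 14 was at 0 in any library. Of 8 astrocyte markers only Gfap, an intermediate filament of astrocytes, was called (2.16; limma adjusted p = 0.0405), and their sum was 2647 to 2770 FPKM in CFA thalami, against 2252 to 2541 FPKM in saline thalami. Of 5 tested endothelial markers none was called, with a median log2 change of 0.01.

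The ligand level was therefore also given per 1000 FPKM of these markers. This was 144, 134 and 148 FPKM in CFA thalami, against 25.3, 25.2 and 23.6 FPKM in saline thalami. In the RVM it was 42.6, 31.3 and 40.0 FPKM in CFA libraries, against 24.9, 26.4 and 40.9 FPKM in saline libraries. On this scale the thalamus groups were apart and the RVM groups overlapped. CFA thalamus and CFA RVM were apart as well, although their marker sums overlapped, at 1099 to 1508 FPKM in CFA thalami and 421 to 1433 FPKM in CFA RVM. Per 1000 FPKM of the 12 monocyte and neutrophil markers, the groups were not apart. That level was 325, 227 and 270 FPKM in CFA thalami, against 170, 247 and 235 FPKM in saline thalami, and 264, 209 and 202 FPKM in CFA RVM, against 156, 194 and 286 FPKM in saline RVM. A few genes weigh most in these sums. Cxcl13 made 40.8% to 65.3% of the ligand sum in CFA thalami and 34.9% to 54.3% in CFA RVM. Of the 1508 FPKM of microglia and macrophage markers in thalamus CFA library 1, C1qa, C1qb and C1qc had 430, 287 and 297 FPKM. Ratios without these genes were not computed. No test was run on these ratios, and the part of cell number in the ligand levels was not tested.

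Of the monocyte and neutrophil markers, 5 of 6 tested were called higher in CFA thalami, but 4 of the 5 passed the filter only through their CFA level. They were the lysozyme gene Lyz2 (4.44), Plac8 (5.03), the calprotectin subunits S100a9 (3.17) and S100a8 (2.58), and the growth factor receptor Csf3r (1.80), as log2 changes, of which only Lyz2 reached a mean of 1 FPKM in saline thalami. Mmp9, a gelatinase of neutrophils, had 3.53, 0.934 and 2.01 FPKM in CFA thalami, against 0.144, 0 and 0 FPKM in saline thalami, a log2 change of 1.51 that was not called (limma adjusted p = 0.0664). Their list of 12 summed to 667, 690 and 600 FPKM in CFA thalami, against 22.9 to 39.0 FPKM in saline thalami, and to 231, 63.0 and 236 FPKM in CFA RVM, against 33.7 to 47.5 FPKM in saline RVM. Most of the thalamic sum was Lyz2, which microglia and macrophages also express, at 584, 620 and 534 FPKM. The neutrophil genes Mpo, Elane and Cd177 were at 0 or up to 0.163 FPKM in every library, and Ly6c was at 0 in all 12. Mmp8, the neutrophil collagenase, had 0.345, 0.169 and 0.567 FPKM in CFA thalami, against 0.0206, 0 and 0.0248 FPKM in saline thalami.

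T and B lymphocyte markers, for the cells that Cxcl13, Cxcl16 and the Cxcr3 ligands draw, were low. Only Cd8a, a co-receptor of cytotoxic T cells, and Cd4 reached the filter in the thalamus, and Cd8a was called. Cd8a had 7.39, 2.63 and 2.99 FPKM in CFA thalami, against 0.0362, 0.135 and 0.0435 FPKM in saline thalami, a log2 change of 2.21 ± 0.34 (SE; limma adjusted p = 0.0179). Cd3e, part of the T cell receptor complex, had 1.97, 1.10 and 1.12 FPKM in CFA thalami, against 0.0335, 0.0416 and 0 FPKM in saline thalami. The B cell gene Ms4a1 was at 0.256 FPKM or less in every library, although Cxcl13 was the most abundant ligand in CFA thalami. The list of 14 summed to 72.7, 15.5 and 19.5 FPKM in CFA thalami, against 2.25 to 5.95 FPKM in saline thalami. Cd4, which rat macrophages also carry, made 54.0 FPKM of the 72.7 in CFA library 1.

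Of 21 chemokine receptors measured, 4 passed the filter in the thalamus and 3 of these were called higher, with a median log2 change of 1.23. Among those called were Cxcr4, the receptor of Cxcl12, with 1.64 (limma adjusted p = 0.0439), and Cx3cr1, the microglial receptor of Cx3cl1, with 1.20 (limma adjusted p = 0.00275). Ackr3, a scavenger receptor, was not called, at 0.12 (limma adjusted p = 0.779).

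Receptors of members that stayed under the filter are given as values. Cxcr6, for Cxcl16, had 1.59, 1.73 and 1.71 FPKM in CFA thalami, against 0, 0.177 and 0.0572 FPKM in saline thalami. Cxcr3, for Cxcl9, Cxcl10 and Cxcl11, had 1.04, 0.849 and 0.977 FPKM in CFA thalami, against 0, 0.262 and 0.0727 FPKM in saline thalami. Cxcr5, for Cxcl13, had 0.528, 0.630 and 0.362 FPKM in CFA thalami, against 0.168, 0.0834 and 0.202 FPKM in saline thalami, which are 2 to 16 reads per library. Ccr1 had 1.45, 0.606 and 2.38 FPKM in CFA thalami, against 0.136, 0.135 and 0 FPKM in saline thalami, and its CFA libraries ran in the order of Ccl3, lowest in library 2 and highest in library 3. In each of these receptors the CFA thalami lay above the saline thalami. Ccr2, the receptor of Ccl2 and Ccl7, is not analysed here.

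In the RVM no receptor was called. Cxcr6 had 0.735, 0.206 and 1.02 FPKM in CFA RVM and was listed at 0 in all 3 saline RVM libraries. Cxcr5 had 0.705, 0.328 and 0.723 FPKM in CFA RVM, against 0.0826, 0.144 and 0.242 FPKM in saline RVM, so that its level in CFA RVM overlapped that in CFA thalamus although Cxcl13 did not.

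**Figure D4:**
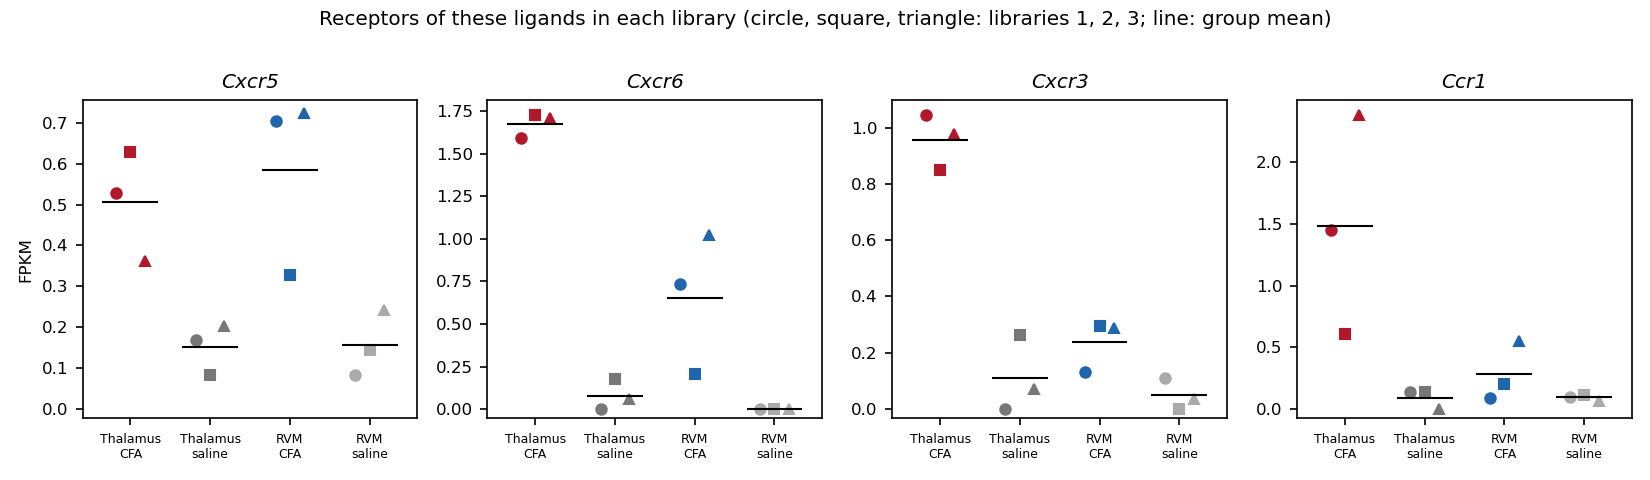
FPKM of the receptors Cxcr5, Cxcr6, Cxcr3 and Ccr1 in the 12 libraries, with a linear y axis per panel, symbols for libraries 1 to 3 of each group and a line at the group mean. In the thalamus the CFA libraries lie above the saline libraries in each panel, and no value exceeds 2.38 FPKM.

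Among the other chemokine ligands, 14 of 25 measured passed the filter in the thalamus and 4 were called higher, with a median log2 change of 1.21 against -0.08 for all genes. These were Ccl6, a CC chemokine of rodent macrophages (2.60; limma adjusted p = 0.0445), Pf4, platelet factor 4 (2.52; limma adjusted p = 0.0302), Cxcl1, a neutrophil attractant (2.06; limma adjusted p = 0.0148), and Cxcl17 (1.16; limma adjusted p = 0.0135). Of these, Ccl6, Cxcl1 and Cxcl17 passed the filter only through their CFA level. The median of the 10 inflammatory ligands was 2.94. Cx3cl1, which neurons make constitutively, ran the other way without passing. It had 67.6, 142 and 105 FPKM in CFA thalami, against 148, 233 and 190 FPKM in saline thalami, a log2 change of -0.89 ± 0.30 (SE; limma adjusted p = 0.177). Of 9 neuron markers none was called there, and their median log2 change was -0.44. The 8 thalamic neuron markers had a median of -1.05, all 8 negative and none called. Their sum was 140, 525 and 447 FPKM in CFA thalami, against 388, 940 and 802 FPKM in saline thalami, and its part in the ligand levels was not tested. In the RVM none of 6 tested other ligands was called.

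Genes known to induce these ligands were read in the same way. Of 10 inducing cytokines, only interleukin 1 beta (Il1b) passed the filter in the thalamus. Il1b had 11.2, 6.15 and 12.9 FPKM in CFA thalami, against 0.252, 0.179 and 0.0433 FPKM in saline thalami, a log2 change of 3.21 ± 0.27 (SE; limma adjusted p = 0.00194). The other listed cytokines were scarce. Interferon gamma (Ifng), the inducer of Cxcl9, had 0.619, 0.346 and 0.118 FPKM in CFA thalami and was listed at 0 in all saline thalami and all RVM libraries. Tnf, for tumour necrosis factor, was at 0.0991 FPKM or less in every library.

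Of 14 genes of the NF-kB and interferon pathways, 10 were called higher in CFA thalami, with a median log2 change of 1.18. The largest changes were those of Irf8, a factor of myeloid cells (2.94; limma adjusted p = 0.00127), Irf1 (2.34; limma adjusted p = 0.00541) and Nfkb2 (1.57; limma adjusted p = 0.00394). Nfkbiz, a nuclear cofactor, changed by 1.37 (limma adjusted p = 0.0228) and Relb by 1.33 (limma adjusted p = 0.0298). Rela, the main NF-kB subunit, was not called, at 0.18 (limma adjusted p = 0.436). In the RVM 0 of 12 tested were called.

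Genes whose profile was most like that of each member were found as the smallest root mean square difference of log2(FPKM + 1) over the 12 libraries, each gene centred on its own mean, among 12383 genes. This is a description of 12 libraries that share their groups. For Cxcl13 the nearest were the MHC class II genes Cd74 (0.745), RT1-Da (0.795) and RT1-Db1 (0.830), farther than the nearest gene of any other member, around a root mean square of 2.71 for Cxcl13 about its own mean. Ccl2 and Ccl7 were 0.365 apart. The nearest to Ccl2 after Ccl7 were Socs3 (0.434), a feedback inhibitor of cytokine signalling, and Il1rn (0.437), the interleukin 1 receptor antagonist. Nearest to Ccl7 was Orm1 (0.289), an acute-phase protein, with Ptx3 (0.377), a soluble pattern receptor, behind Ccl2. Cxcl10 and Cxcl16 were near each other (0.252), and both had Lgals3bp, a secreted glycoprotein, as their nearest gene (0.246 and 0.248).

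The remaining members each had a different neighbour. Nearest to Ccl3 were Clec4e (0.245), a myeloid lectin receptor, and the neutrophil attractant Cxcl2 (0.261). Cxcl2 had 4.17, 0.988 and 7.02 FPKM in CFA thalami, against 0.0938, 0.465 and 0.338 FPKM in saline thalami, lowest in CFA library 2 and highest in library 3 as Ccl3 was. Nearest to Ccl4 were Clec4a2 (0.218) and Tgfb1 (0.219). Cxcl9 was nearest to Lrrc25 (0.178), Cxcl11 to Adamts1 (0.293) and Ccl5 to Ifngr2 (0.209). Cxcl9, Cxcl10 and Cxcl11, which are adjacent and share a receptor, were not among each other's 3 nearest genes. The distance also counts how far each gene moves, and their root mean squares about their own means were 1.17, 1.22 and 0.84. It therefore does not show whether these genes rise and fall together.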

How the data were processed

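RNA from 12 rat brain samples was sequenced. Per the labels' protocols, TRIzol was used for extraction and an Illumina TruSeq kit, with no statement on strand, for libraries from 1 ug of total RNA. The authors deposited FPKM values per gene and library; aligner, counter, build and scaling are not given in the sources. FPKM times gene length, divided by a step fitted for each library (the value of 1 read), gave whole reads within 0.01 for 100% of values, and these recovered reads give the depth. Replicates differed beyond sampling noise in all 12 pairs.

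Tissue and treatment labels gave the groups. Values were tested as log2(FPKM + 1) with limma 3.58.1 (R 4.3.3; empirical Bayes with trend), keeping genes whose mean reached 1 FPKM, within each region over 6 libraries and as an interaction over 12. Calls had a Benjamini-Hochberg adjusted p below 0.05 over all genes tested. Limma-voom on the recovered reads was an alternative. The members, lists and tests were chosen with earlier results of these data known. Named genes were all members, up to 5 called genes per list and direction (otherwise the lowest p), receptor partners and the 3 nearest profiles. Cd3e, Cd4, Ms4a1, the scarce cytokines and the Cxcl2 values were chosen after their values were seen. So were the monocyte and neutrophil genes Mpo, Elane, Cd177, Ly6c, Mmp8 and Mmp9, and also Rela, Tmem119, Aif1 and Csf1r. The fits were tested on simulated data. Protein sequences were not used here, and some listed genes are not reported here.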

Additional observations from a re-analysis of the deposited data

How the results depend on the processing

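In the thalamus 7 members were called, and 5 to 8 when each library was left out in turn. A filter at a mean of 5 FPKM left 4 called, all that passed it; limma-voom called 3, and the fit without CFA libraries 1 and 2 together called 3. For all genes the count of 605 became 298 with the 5 FPKM filter, 1932 with all 12 libraries in a single model, 66 without CFA libraries 1 and 2, and 309 to 547 with each library left out. In the RVM the count of members was 0, and 0 to 4 with each library left out; the 4 came without CFA library 2, and 484 genes were then called. The difference of the CFA effects gave 0, or 0 to 2 with each library left out (2 without thalamus CFA library 3), and up to 13 genes. Thalamus against RVM in CFA gave 7 members, 4 with the 5 FPKM filter and 3 to 6 with each library left out, and for all genes 4880, or 2906 to 5418 with each library left out. In saline it gave 1, namely 1 with each library left out, 2 without a filter (Ccl3 added), 0 at 5 FPKM, where none was tested, and 2 after rescaling (Ccl5 added). The difference for Ccl5 reversed to -0.011 without thalamus CFA library 2 and -0.038 without RVM CFA library 2, in a range of -0.038 to 0.357 with each library left out. Of 548 values of single members under alternatives, 495 kept direction and side of the threshold, 35 lost the call and 16 gained it; where not stated, the cause was not tested.

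Libraries of the groups share replicate numbers. Deviations of thalamus libraries with the same number correlated at 0.364, 0.063 and 0.267. Those of the RVM correlated at -0.028, -0.005 and -0.010. Thalamus libraries of unlike number correlated at -0.448 to 0.312. The labels state no pairing, and whether same-numbered thalamus samples share more than a number was not tested. Each thalamus CFA library correlated best with the saline library of its own number except CFA library 3 (0.312 with saline library 2). With the replicate block, 8 members were called in the thalamus (Cxcl11 added) and 1338 genes; the block left 0 members in the RVM, 0 in the difference of effects, 7 between regions in CFA and 1 in saline.

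Depth limits the members near 0, since 3 reads correspond to 0.101 FPKM for Cxcl9 and 0.341 FPKM for Ccl4 in saline libraries listed at 0.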
